A study of Mus musculus with 6 samples.

Results

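Genes of cholesterol and fatty acid synthesis were followed in cultured acini of the mouse pancreas, the clusters of cells that make and secrete digestive enzymes. The set held 31 of the 56953 genes counted, taken by gene name from the table of raw counts, with 23 genes in a sterol branch and 8 in a fatty acid branch. All 31 had enough counts to be tested, among 14738 genes tested in all. RNA was sequenced on day 3 of an assay of acinar-to-ductal metaplasia (ADM) outside the animal: acini were embedded in growth factor-reduced Matrigel, where they lose acinar traits and form duct-like structures. The wild-type group (WT) had 2 libraries, labelled as coming from mice of 10 and 11 weeks. The Dkk3-null group (DD) had 2 libraries from mice of 12 and 13 weeks that carried a ubiquitous Dkk3 knockout allele, in which the exon with the secretion signal is replaced. In the third group (DD + rDKK3), 2 libraries came from DKK3 knockout acini of mice labelled 14 and 15 weeks old, cultured with recombinant soluble DKK3 (rDKK3), the secreted glycoprotein that the allele removes. All 6 cultures shared Waymouth medium with 10% fetal bovine serum, trypsin inhibitor and dexamethasone at 10 µg/ml, so each value below was measured under this glucocorticoid. Labelled age and group cannot be told apart. WT 2 was labelled female and the other 5 libraries male. The labelled ages differ between the libraries of a group, which would make them separate animals, but the labels name no animal. A treated library and the untreated Dkk3-null library of its number have the stem DD1 or DD2 in common in their titles, while their labelled ages differ, so whether they share an animal is not known, and they were not treated as pairs.

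Cholesterol is built from acetyl-CoA through mevalonate, isoprenoid pyrophosphates, squalene and lanosterol, and fatty acids are built from the same acetyl-CoA after citrate leaves the mitochondrion. Both routes are under the sterol regulatory element-binding proteins (SREBPs), transcription factors held in the endoplasmic reticulum by INSIG proteins while sterols are plentiful and released by proteolysis when sterols run low. SREBP2, the product of Srebf2, acts mainly on sterol genes, and SREBP1, the product of Srebf1, mainly on fatty acid genes. Acinar cells hold an extensive endoplasmic reticulum and secretory pathway, whose membranes are made of these lipids.

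Libraries held between 12018473 and 19750401 counts, and the 31 genes took 0.111% to 0.174% of them. The lowest count of any of the 31 genes in a library was 86 for Idi1 in WT 1, with a 95% Poisson interval of 68.8 to 106 that covers counting error only. Dkk3 itself had 10 counts in WT 1, 1 in WT 2, 11 and 9 in the DD libraries, and 5 in each treated library. These gene-level counts include exons outside the replaced one, so they do not check the labels. Summed acinar markers lay between 77210 and 134200 CPM (counts relative to the TMM-scaled library total), with all 13 of 13 tested, and summed ductal markers between 1739 and 2669 CPM. Summed fibroblast and stellate markers set DD 2 (796.7 CPM) and DD + rDKK3 2 (892.1 CPM) apart from the other 4 libraries, at 42.78 to 161.6 CPM. Summed macrophage markers were also highest in these, at 224.7 and 173.7 CPM against 57.11 to 109.5 CPM. Of 11 adipocyte markers, 7 stayed under 1 CPM in every library, Adipoq among them at 0 to 0.1405 CPM, and the summed level of the list ranged from 103.4 to 223.8 CPM, most of it Fabp4. Summed endothelial markers lay between 66.51 and 120.2 CPM. Branch medians were therefore also obtained without each library, DD 2 and DD + rDKK3 2 among them. The part of the other cell types in the results was not tested.

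Promoter sequences of genes that lead the comparisons below are shown first, because SREBPs act at such promoters together with NF-Y, which binds CCAAT, and Sp1, which binds GGGCGG. RefSeq windows of mouse build GRCm38.p6, each from 250 bases before to 50 bases after a transcription start, were found for 19 of 23 sterol genes and 6 of 8 fatty acid genes. No window was used for Sqle, Fdft1, Fdps, Stard4, Scd1 and Scd2. These positions belong to GRCm38.p6 and differ from the GRCm39 positions of the counts. Each line gives the bases just upstream of the start, 5′ to 3′ on the strand of the gene. Capitals mark CCAAT or its complement ATTGG and, in Hmgcs1, the sterol regulatory element letters TCACNCCAC and, in Hsd17b7, the E-box letters CACGTG. Hmgcs1, Hsd17b7 and Srebf2 had the smallest unadjusted p-values of the sterol branch when DD was set against WT, Lss was among the leading sterol genes of the treated libraries against WT, Cyp51 is a sterol gene with DD above WT, and Fasn was among the leading fatty acid genes.
Hmgcs1, chr13:119690201-119690350, plus strand: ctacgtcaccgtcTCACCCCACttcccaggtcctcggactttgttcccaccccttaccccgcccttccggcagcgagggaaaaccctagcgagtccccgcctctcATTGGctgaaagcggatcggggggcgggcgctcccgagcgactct
Hsd17b7, chr1:169969206-169969355, minus strand: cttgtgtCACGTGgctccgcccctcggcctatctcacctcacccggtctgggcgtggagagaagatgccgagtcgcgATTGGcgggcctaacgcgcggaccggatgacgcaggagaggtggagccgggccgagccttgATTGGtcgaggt
Srebf2, chr15:82147119-82147268, plus strand: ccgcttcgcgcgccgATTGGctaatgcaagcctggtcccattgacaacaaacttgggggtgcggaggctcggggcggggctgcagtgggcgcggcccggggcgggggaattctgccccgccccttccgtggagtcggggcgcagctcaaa
Lss, chr10:76531505-76531604, plus strand: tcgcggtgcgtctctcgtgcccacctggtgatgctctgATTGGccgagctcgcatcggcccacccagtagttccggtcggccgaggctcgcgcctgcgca
Cyp51, chr5:4104698-4104797, minus strand: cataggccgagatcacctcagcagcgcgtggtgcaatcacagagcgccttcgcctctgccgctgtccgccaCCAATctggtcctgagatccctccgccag
Fasn, chr11:120824548-120824647, minus strand: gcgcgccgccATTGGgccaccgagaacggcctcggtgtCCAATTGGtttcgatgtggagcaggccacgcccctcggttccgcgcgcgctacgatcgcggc

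CCAAT was present on either strand in 18 of 19 sterol genes (94.7%), in 4 of 6 fatty acid genes (66.7%) and in 41.1% of the 27025 mouse genes with a window. GGGCGG was present in 17 of 19 sterol genes (89.5%), in 3 of 6 fatty acid genes (50%) and in 38.2% of all genes. A gene counted if any of its windows matched. By window, CCAAT was in 81.8% of sterol, 55.6% of fatty acid and 37.4% of all windows, and GGGCGG in 81.8%, 44.4% and 35.7%. The 27025 genes were not limited to those expressed in these cultures. Hmgcs1, the cytosolic HMG-CoA synthase, held TCACNCCAC at position -137 and CCAAT on the minus strand at -45, counted from the start site. It was the only sterol gene of 19 with TCACNCCAC (5.26%, against 1.44% of all genes). CACCCCAC, which overlaps that match in Hmgcs1, was also found in Acat2, and thus in 10.5% of sterol genes against 3.3% of all genes. No other spelling of the sterol regulatory element was searched, so a gene without these strings is not shown to lack the element. CACGTG was found in 4 of 19 sterol genes (21.1%), namely Insig1, Dhcr7, Sc5d and Hsd17b7, in none of the 6 fatty acid genes, and in 8.09% of all genes. In Fasn, the CCAAT matches at -62 and -59 lie on opposite strands and share bases. These letter matches are descriptions of the windows. Binding was not measured.

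All 31 genes were expressed in every library. Per kilobase of exon, the mean level over the 6 libraries was highest for Insig1 (16.71 CPM per kb), Hmgcs1 (15.61), Scd1 (15.29), Fdft1 (14.42) and Fdps (13.51), in that order of levels per length. It was lowest for Acaca (0.7668 CPM per kb), Mvk (1.396), Dhcr7 (1.582) and Lss (1.641). The order of neighbours changed with the group: in WT alone Scd1 (14.87 CPM per kb) was above Hmgcs1 (13.24), and Lss (1.265) was under Mvk (1.276) and Dhcr7 (1.455). Insig1, the sterol-sensing brake on SREBP release, was also the steadiest gene, at 77.12 and 85.69 CPM in WT, 81.82 and 80.13 CPM in DD and 75.42 and 89.39 CPM in DD + rDKK3, a range of 1.19-fold over the 6 libraries. The widest ranges were those of Scd2 (3.32-fold), Elovl6 (3.03-fold), Scd1 (2.83-fold) and Me1 (2.78-fold), all in the fatty acid branch. In the sterol branch the widest was that of Hsd17b7 (2.15-fold).

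**Figure D1:**
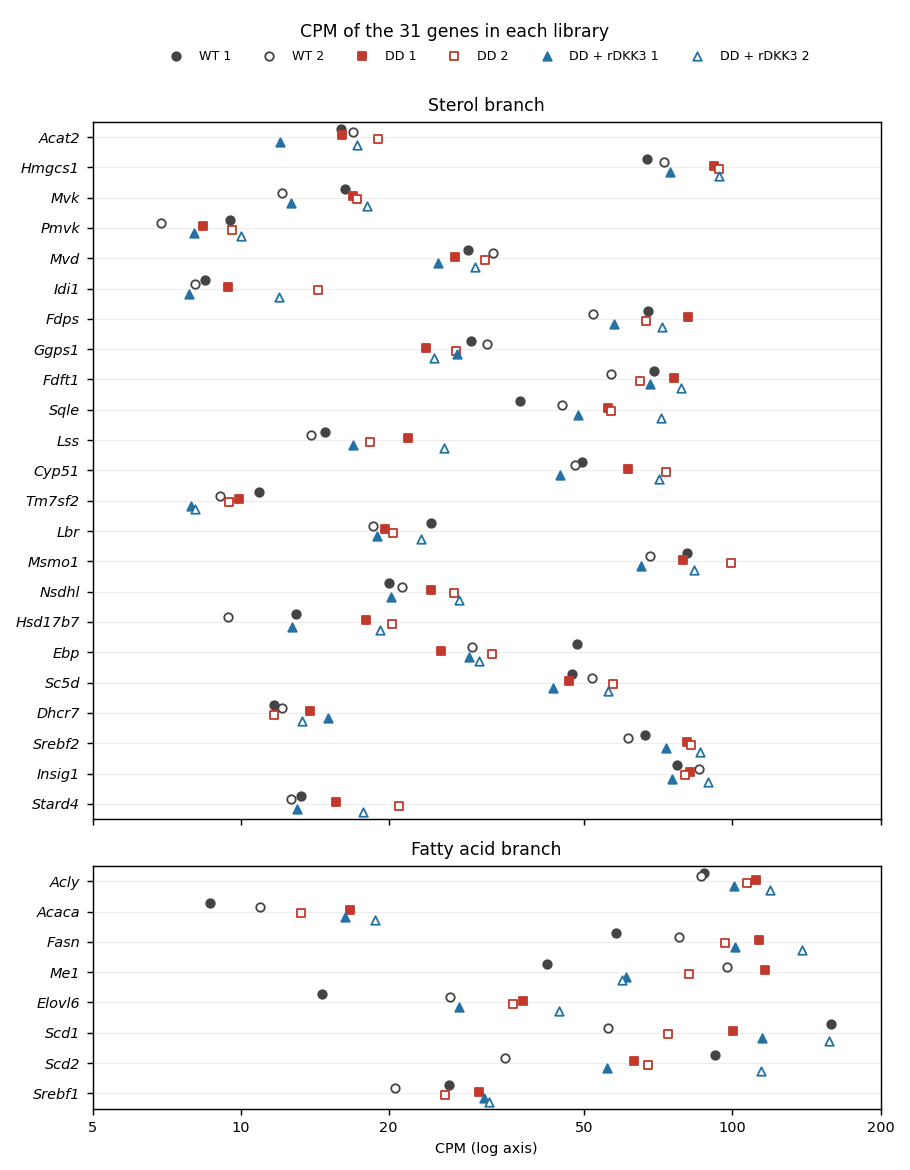
CPM of each of the 31 genes on a log axis, one point per library, with filled symbols for replicate 1 and open symbols for replicate 2 of WT (circles), DD (squares) and DD + rDKK3 (triangles), and genes in pathway order. Hmgcs1, Srebf2, Hsd17b7, Fasn and Elovl6 have both DD libraries to the right of both WT libraries, and Scd1, Scd2 and Me1 spread widely within WT.

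The 2 WT libraries lay further apart in the fatty acid branch than in the sterol branch. Between the 2 WT libraries the median absolute difference was 0.64 on the log2 CPM scale in the 8 fatty acid genes, 0.15 in the 23 sterol genes and 0.30 over all genes tested. Scd1 and Scd2, the Δ9 desaturases that make monounsaturated fatty acids, stood at 158.4 and 91.95 CPM in WT 1 and at 55.91 and 34.42 CPM in WT 2, which is 2.83-fold and 2.67-fold higher in WT 1. Me1, the cytosolic malic enzyme that supplies NADPH, lay the other way, at 42.05 CPM in WT 1 and 97.42 CPM in WT 2, and so did the elongase gene Elovl6, at 14.64 and 26.69 CPM. For Scd1, Scd2 and Me1 the WT baseline thus spans a wider range than the differences between group means described below. For Elovl6 the WT libraries differed by 0.86 on the log2 scale, close to its log2 fold change of 0.81 in DD against WT. Scd1 and Scd2 are neighbours of similar sequence on chromosome 19 (Scd1 at 44382894 to 44396318, Scd2 at 44282113 to 44295303, GRCm39), so reads that match both may be split or dropped, and the same caution holds for Acat2, which has a close copy in the mouse genome.

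In DD against WT, which asks what loss of DKK3 changed in cultured acini, the genes of both branches were mostly higher in DD, by less than a doubling, and none passed the test across all genes. The sterol branch had 17 of 23 genes higher, with a median log2 fold change of 0.27, or 0.21 without DD 2 and 0.14 without WT 2. The fatty acid branch had 7 of 8 higher, with a median of 0.42, or 0.56 without DD 2 and 0.29 without DD 1. Over all genes tested, 51.7% were higher and the median was 0.016. Replicates of 1 group gave counts of the same size, since DD 2 was above DD 1 in 17 of 23 sterol genes (median log2 difference 0.15) and below it in 7 of 8 fatty acid genes (-0.23). In these bulk cultures, more RNA of a gene per cell and more cells of a type that expresses it cannot be told apart. Both WT libraries lay below both DD libraries in 10 of 23 sterol genes and 4 of 8 fatty acid genes, where 18.1% of all genes tested had such groups, and above both in 1 gene, Ggps1, where 19.7% of all genes did. By edgeR's quasi-likelihood test with Benjamini-Hochberg adjustment over all genes, 0 of 31 were called at an adjusted p of 0.05, against 6 of 14738 genes (0.0407%). At an unadjusted p under 0.05, 6 of 31 were higher and 0 lower, against 4.27% of all genes higher and 3.99% lower.

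In the mevalonate segment, from acetyl-CoA to the isoprenoid pyrophosphates, 6 of 8 genes were higher in DD and the median log2 fold change was 0.20. Hmgcs1 (chr13:120151915-120169796, GRCm39), whose product joins acetoacetyl-CoA and acetyl-CoA at the entry of the pathway, stood at 66.90 and 72.56 CPM in WT and at 91.57 and 93.83 CPM in DD. The DD libraries were close together and both above WT, and the log2 fold change was 0.41 ± 0.17 (SE, unadjusted p 0.0394 and adjusted p 0.586 by edgeR). Idi1, which converts isopentenyl to dimethylallyl pyrophosphate, stood at 8.449 and 8.078 CPM in WT and at 9.418 and 14.34 CPM in DD, so its difference rested largely on DD 2. Fdps, the farnesyl pyrophosphate synthase, overlapped between groups, at 67.20 and 51.98 CPM in WT and 81.30 and 66.78 CPM in DD. Mvk and Pmvk, the consecutive kinases of mevalonate, had log2 fold changes of 0.27 ± 0.23 and 0.14 ± 0.24 (SE). Acat2, the cytosolic thiolase that makes acetoacetyl-CoA, and Mvd, the decarboxylase that yields isopentenyl pyrophosphate, overlapped between groups with log2 fold changes of 0.09 ± 0.22 and -0.07 ± 0.17. Ggps1, which diverts farnesyl pyrophosphate to geranylgeranyl pyrophosphate for protein prenylation and away from sterols, was the gene with groups apart in the other direction, at 29.37 and 31.75 CPM in WT and 23.85 and 27.45 CPM in DD.

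In the segment from squalene to cholesterol, 9 of 12 genes were higher in DD and the median log2 fold change was 0.22. Hsd17b7 (chr1:169777104-169796810), the 3-ketosteroid reductase of C4 demethylation, stood at 12.97 and 9.412 CPM in WT and 17.98 and 20.28 CPM in DD. Its log2 fold change of 0.78 ± 0.26 (SE, 1.72-fold) was the largest of the sterol branch, with an unadjusted p of 0.0171 and an adjusted p of 0.586 by edgeR. With no filter on low counts, where edgeR called 528 of 26506 genes, its adjusted p was 0.0267. Sqle, the squalene monooxygenase and a flux-controlling step, stood at 37.04 and 44.95 CPM in WT and 55.94 and 56.56 CPM in DD. Lss, which closes the ring to lanosterol, and Cyp51, which removes its C14 methyl group, had log2 fold changes of 0.49 ± 0.23 and 0.47 ± 0.23 with groups apart, and so had Nsdhl, at 0.32 ± 0.19. Fdft1, the squalene synthase, overlapped between groups, at 69.16 and 56.54 CPM in WT against 76.19 and 64.84 CPM in DD. Ebp, the sterol isomerase, had a log2 fold change of -0.42 ± 0.24, resting on WT 1 (48.24 CPM) while WT 2 (29.57 CPM) lay between the DD libraries (25.56 and 32.51 CPM). Tm7sf2 and Lbr, which encode the alternative C14 reductases, stood at -0.04 ± 0.19 and -0.10 ± 0.19. Dhcr7, Sc5d and Msmo1 overlapped between groups with log2 fold changes of 0.10, 0.07 and 0.27.

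Among the genes of sterol control, Srebf2 (chr15:82031382-82089580) stood at 66.31 and 61.25 CPM in WT and 80.69 and 82.42 CPM in DD, with a log2 fold change of 0.36 ± 0.15 (SE, unadjusted p 0.0495 and adjusted p 0.586 by edgeR). Stard4, a cytosolic carrier of cholesterol and a known SREBP2 target, stood at 13.26 and 12.64 CPM in WT and 15.62 and 20.99 CPM in DD, with a log2 fold change of 0.50 ± 0.23 (unadjusted p 0.0619 and adjusted p 0.586 by edgeR), or 0.27 without DD 2. Insig1, also an SREBP target, was level between the groups, with a log2 fold change of -0.01 ± 0.16, unlike Srebf2 and Stard4. Of the 8 genes of the SREBP processing machinery, 4 were higher and 4 lower in DD and their median log2 fold change was 0.0022, with 4 of 8 higher in DD + rDKK3 against DD and 3 of 8 against WT. Insig2, the second anchor of the SREBP complex, was lower in both DD libraries, at 47.47 and 54.91 CPM against 70.34 and 63.99 CPM in WT, with a log2 fold change of -0.39 ± 0.16 and an adjusted p of 0.586 by edgeR. Rnf139, a ubiquitin ligase of the endoplasmic reticulum, was lower likewise, at 29.01 and 26.63 CPM against 35.17 and 33.72 CPM.

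Of the 7 enzyme genes of the fatty acid branch, 6 were higher in DD and 1 lower, where 51.7% of all genes were higher. Groups were apart in 4, all higher in DD, against 18.1% of all genes, and 0 were called, against 0.0407%. Fasn (chr11:120696672-120715373), the fatty acid synthase, stood at 57.96 and 77.76 CPM in WT and 113.2 and 96.53 CPM in DD, with a log2 fold change of 0.63 ± 0.22 (SE, 1.54-fold, unadjusted p 0.0229 and adjusted p 0.586 by edgeR). Acaca (chr11:84020498-84292477), the acetyl-CoA carboxylase that makes malonyl-CoA, stood at 8.645 and 10.96 CPM in WT and 16.66 and 13.29 CPM in DD, with a log2 fold change of 0.61 ± 0.21 (1.52-fold, unadjusted p 0.0219 and adjusted p 0.586 by edgeR). Acly, which splits exported citrate to acetyl-CoA, was at 87.33 and 86.25 CPM in WT and 111.7 and 107.2 CPM in DD, with replicates close together and groups apart. Elovl6 (chr3:129326004-129432144), which lengthens palmitate, was at 37.43 and 35.74 CPM in DD, above both WT libraries. Its log2 fold change was 0.81 ± 0.31 (unadjusted p 0.0313 and adjusted p 0.586 by edgeR). With no filter on low counts, where edgeR called 528 of 26506 genes, Elovl6 had an adjusted p of 0.00167 and Fasn one of 0.0315. Scd1, at 100.2 and 74.07 CPM in DD, lay within the WT range, with a log2 fold change of -0.29 ± 0.43, and Scd2 likewise, with 0.05 ± 0.46. Me1 was at 116.7 and 81.54 CPM in DD with WT 2 between them, and Srebf1 at 30.52 and 26.04 CPM against 26.52 and 20.58 CPM in WT.

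**Figure D2:**
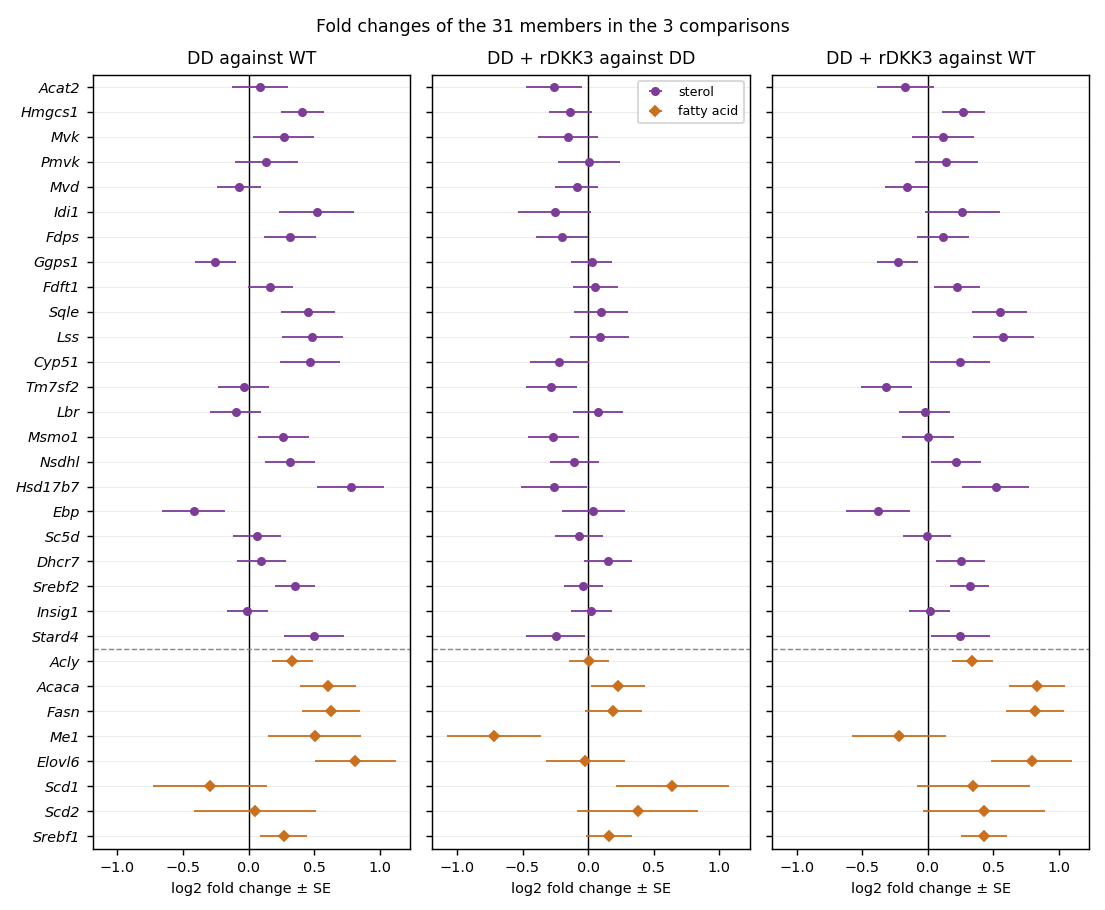
Log2 fold change with its standard error from the edgeR fit for each of the 31 genes, with DD against WT in the left panel, DD + rDKK3 against DD in the middle and DD + rDKK3 against WT on the right, with 2 libraries in each group, sterol genes above the dashed line and fatty acid genes under it. In the left and right panels most points lie right of 0, with branch medians of 0.27 and 0.42 on the left and 0.14 and 0.43 on the right, and in the middle panel the sterol genes lie close to 0, between -0.28 and 0.15.

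In DD + rDKK3 against DD, which asks whether the added protein altered the Dkk3-null cultures, no gene passed the test, and few of the 31 had groups apart in either direction. The sterol branch had 9 of 23 genes higher and 14 lower, with a median log2 fold change of -0.088, and the fatty acid branch had 6 of 8 higher, with a median of 0.18, against 49.5% of all genes higher. Both treated libraries lay above both untreated ones in 2 of 31 genes, Scd1 and Srebf1, against 15.1% of all genes, and below both in 2 of 31, Tm7sf2 and Me1, against 14.4%. No gene was called in this comparison by edgeR, of the 31 or of all 14738 (0%), and 5 genes, none of the 31, were called by DESeq2. At an unadjusted p under 0.05, 0 of the 31 passed, against 0.597% of all genes higher and 1.38% lower. The sterol median was 0.056 when DD + rDKK3 1 was left out, -0.28 when DD + rDKK3 2 was, -0.18 without DD 1 and -0.020 without DD 2. The fatty acid median was -0.0925 when DD + rDKK3 2 was left out, 0.29 without the other treated library, 0.27 without DD 1 and 0.065 without DD 2, so the direction of each median depended on 1 treated library.

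Mevalonate genes were lower in 6 of 8 (median log2 fold change -0.14), and the genes from squalene to cholesterol were even, 6 higher and 6 lower (median -0.01). Tm7sf2 had the smallest p of the sterol branch, at 9.938 and 9.465 CPM in DD and 7.922 and 8.068 CPM with rDKK3, a log2 fold change of -0.28 ± 0.19 (SE, unadjusted p 0.186 and adjusted p 1 by edgeR). Msmo1, the C4 methylsterol oxidase, was at 79.41 and 99.35 CPM in DD and 65.17 and 83.58 CPM with rDKK3, and Acat2 and Stard4 had log2 fold changes of -0.26 ± 0.22 and -0.25 ± 0.22, all 3 with overlapping groups. With 1 library left out, their fold changes ran from -0.46 without DD + rDKK3 2 to -0.094 without DD 2 for Msmo1, from -0.55 without DD + rDKK3 2 to -0.040 without DD + rDKK3 1 for Acat2, and from -0.50 without DD + rDKK3 2 to -0.020 without DD 2 for Stard4. All 3 were also moved by over 1.5 times without DD 1, to -0.44, -0.40 and -0.47, and without the remaining library, to -0.11 for Msmo1 (DD + rDKK3 1), -0.13 for Acat2 (DD 2) and -0.059 for Stard4 (DD + rDKK3 1). Srebf2 was at 73.31 and 85.84 CPM with rDKK3, on either side of the DD values. Me1 was at 60.79 and 59.59 CPM with rDKK3 against 116.7 and 81.54 CPM in DD, with a log2 fold change of -0.72 ± 0.36 (unadjusted p 0.0812 and adjusted p 1 by edgeR), or -0.46 without DD 1. The treated libraries were close together in Me1, and both lay below DD. Scd1 was at 115.0 and 157.3 CPM with rDKK3 against 100.2 and 74.07 CPM in DD, with a log2 fold change of 0.64 ± 0.43 (unadjusted p 0.177 and adjusted p 1 by edgeR), or 0.39 without DD + rDKK3 2, and lay within the range of the 2 WT libraries. Srebf1 was at 31.32 and 32 CPM with rDKK3, above both DD values, with a log2 fold change of 0.16 ± 0.17.

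The treated libraries differed from each other across both branches. DD + rDKK3 2 was above DD + rDKK3 1 in 21 of 23 sterol genes, with a median log2 difference of 0.33, and in 7 of 8 fatty acid genes, with a median of 0.35, against 50.5% of all genes. Against the untreated library of the same number, DD + rDKK3 1 was below DD 1 in 20 of 23 sterol genes (median log2 difference -0.26) and in 6 of 8 fatty acid genes (-0.16). DD + rDKK3 2 was above DD 2 in 12 of 23 sterol genes (0.0012) and in 7 of 8 fatty acid genes (0.40). Lss, for example, was at -0.37 in the first pair and 0.49 in the second, and Hsd17b7 at -0.49 and -0.08. Idi1 (-0.26 and -0.26), Stard4 (-0.26 and -0.24) and Msmo1 (-0.28 and -0.25) had nearly the same difference in both pairs, and Me1 was lower in both (-0.94 and -0.45). These libraries share the stem of their titles, and whether they share an animal is not known. They also share their place in the fibroblast and stellate marker sums, with number 1 at 67.30 and 161.6 CPM and number 2 at 796.7 and 892.1 CPM, and the part of this in the differences between the pairs was not tested.

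**Figure D3:**
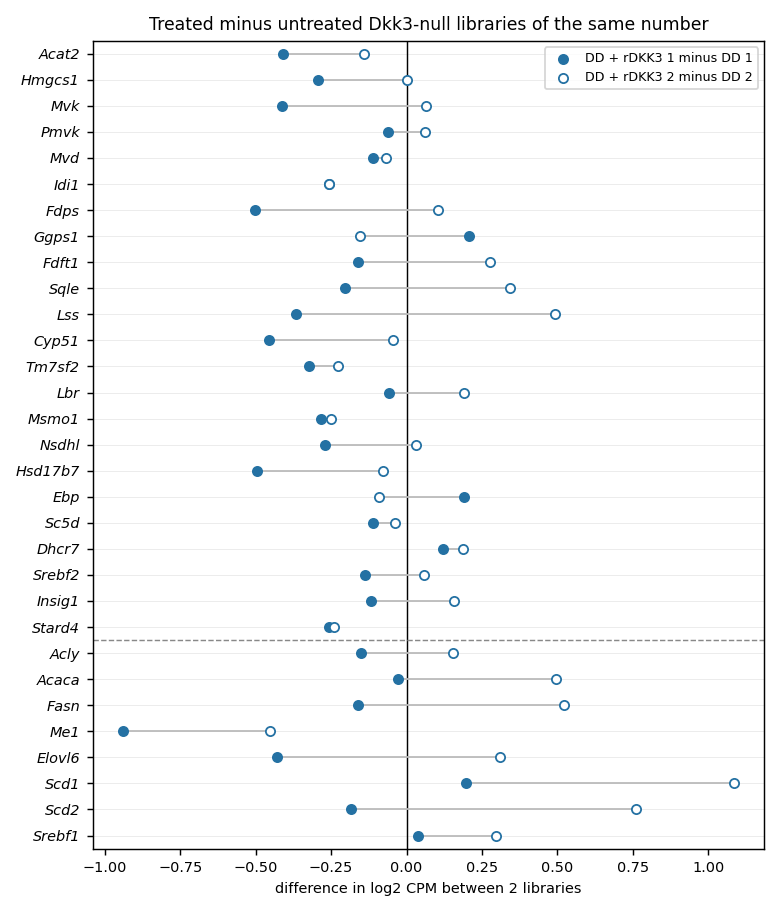
Difference in log2 CPM between a DD + rDKK3 library and the DD library of the same number for each of the 31 genes, filled for number 1 and open for number 2, joined by a line, with sterol genes above the dashed line. Filled points lie left of 0 in 20 of 23 sterol genes, while open points lie on both sides of 0 in the sterol branch and right of it in 7 of 8 fatty acid genes.

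In DD + rDKK3 against WT, most genes of both branches were higher in the treated libraries, and none passed the test across all genes. The sterol branch had 16 of 23 genes higher, with a median log2 fold change of 0.14, and the fatty acid branch 7 of 8, with a median of 0.43, against 51.6% of all genes higher and a median of 0.017. This comparison shares its WT libraries with DD against WT, so the values of one are not independent of the other. Both WT libraries lay below both treated libraries in 5 sterol and 5 fatty acid genes, 10 of 31 in all, where 27.9% of all genes did, and above both in 2, Tm7sf2 and Ggps1, where 27.1% did. The edgeR test called 0 of 31, against 7 of 14738 genes (0.0475%). At an unadjusted p under 0.05, 6 of 31 were higher and 0 lower, against 7.34% of all genes higher and 8% lower. The sterol median was -0.064 without DD + rDKK3 2, 0.29 without DD + rDKK3 1, 0.24 without WT 1 and 0.090 without WT 2. The fatty acid median was 0.32 without DD + rDKK3 2, 0.71 without DD + rDKK3 1 and 0.64 without WT 1.

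Acaca was at 16.32 and 18.77 CPM with rDKK3, above both WT libraries (8.645 and 10.96 CPM), with a log2 fold change of 0.83 ± 0.21 (SE, 1.78-fold, unadjusted p 0.0047 and adjusted p 0.321 by edgeR). Fasn was at 101.2 and 138.6 CPM with rDKK3, with a log2 fold change of 0.82 ± 0.22 (1.77-fold, unadjusted p 0.00652 and adjusted p 0.321 by edgeR). By DESeq2, which called 74 genes and gave no adjusted p for Acaca, Lss and Hsd17b7, Fasn had an adjusted p of 0.0355. With no filter on low counts, 788 of 26506 genes were called by edgeR. Fasn, Elovl6 and Acaca were among them, with adjusted p-values of 0.00138, 0.00305 and 0.0166. Elovl6 was at 27.78 and 44.32 CPM with rDKK3, the lower of them close to WT 2 (26.69 CPM). With the filter, its log2 fold change was 0.79 ± 0.31 (unadjusted p 0.0348 and adjusted p 0.321 by edgeR). Srebf1 was at 31.32 and 32 CPM, above WT at 26.52 and 20.58 CPM, with a log2 fold change of 0.43 ± 0.18. In the sterol branch, Sqle was at 48.54 and 71.69 CPM with rDKK3, above both WT libraries, with a log2 fold change of 0.55 ± 0.21 (unadjusted p 0.0314 and adjusted p 0.321 by edgeR), or 0.25 without DD + rDKK3 2. Lss was at 16.95 and 25.87 CPM against 14.83 and 13.91 CPM in WT, with a log2 fold change of 0.58 ± 0.23 (unadjusted p 0.0394 and adjusted p 0.321 by edgeR), or 0.245 without DD + rDKK3 2. Srebf2 had a log2 fold change of 0.32 ± 0.15 with groups apart (adjusted p 0.342 by edgeR), and Hsd17b7 one of 0.52 ± 0.26 with DD + rDKK3 1 (12.73 CPM) just under WT 1 (12.97 CPM) (adjusted p 0.351 by edgeR). Without DD + rDKK3 2 these values were 0.21 for Srebf2 and 0.20 for Hsd17b7, and without WT 2 Hsd17b7 was at 0.31, while it was at 0.78 without WT 1 and at 0.78 without DD + rDKK3 1. Sc5d and Msmo1 were at -0.0036 and 0.0016 on the log2 scale, level with WT.

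Summed over a branch, which weights the most abundant genes, the sterol level was 826.1 and 775.7 CPM in WT, 905.6 and 954.4 CPM in DD and 777.7 and 979.2 CPM in DD + rDKK3. Both DD sums lay above both WT sums, and the treated sums lay at either end, one at the WT level and one above DD. The fatty acid sum was 487.5 and 410.0 CPM in WT, 589.5 and 501.8 CPM in DD and 508.6 and 684.1 CPM in DD + rDKK3, with every Dkk3-null library above both WT libraries. Library by library, DD + rDKK3 2 held the highest value in 9 of 23 sterol and 6 of 8 fatty acid genes, and DD 2 in 7 sterol genes, while WT 2 held the lowest in 9 sterol genes and each WT library the lowest in 4 of 8 fatty acid genes. Acinar marker sums were highest in WT 1, at 134200 CPM, and were 100900 CPM in WT 2, 90660 and 77210 CPM in DD and 103300 and 83050 CPM in DD + rDKK3.

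**Figure D4:**
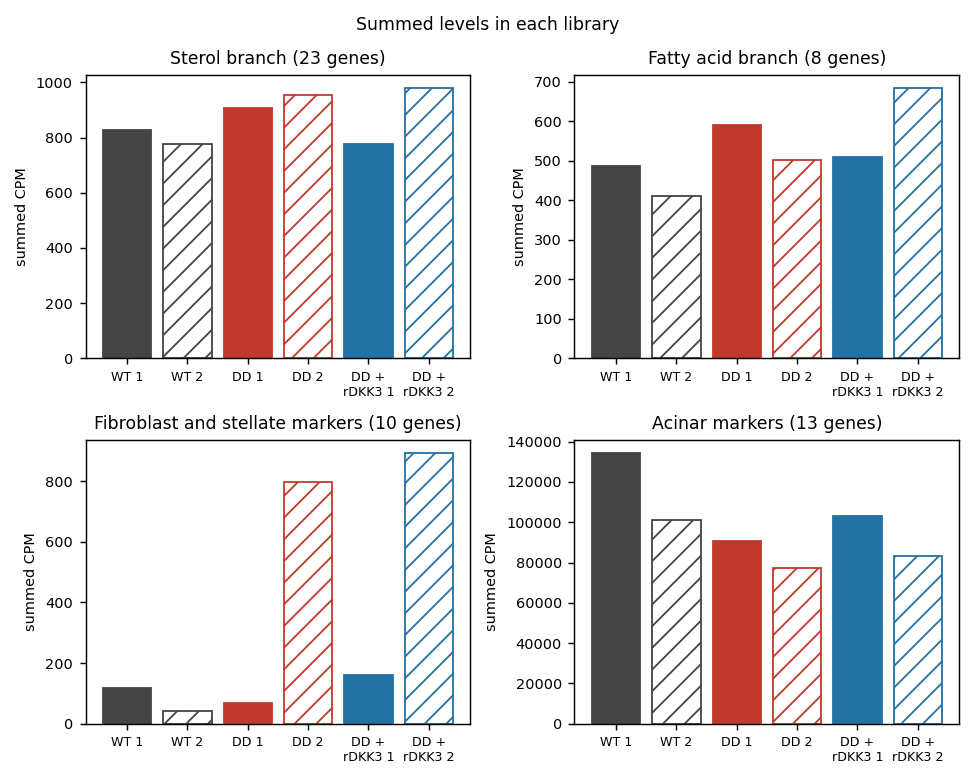
Summed CPM in each of the 6 libraries of the 23 sterol genes, the 8 fatty acid genes, 10 fibroblast and stellate markers and 13 acinar markers, as bars from 0, solid for replicate 1 and hatched for replicate 2. The sterol sums run from 775.7 in WT 2 to 979.2 in DD + rDKK3 2, while the fibroblast and stellate sums of DD 2 and DD + rDKK3 2 stand far above the other 4.

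Neighbouring lipid pathways were counted with lists of textbook members, chosen with earlier results of these data known. Their counts are descriptions, and no list was tested as a set. Other genes of fatty acid synthesis, elongation and desaturation had 10 of 17 higher in DD against WT (median log2 fold change 0.073), 6 of 17 in DD + rDKK3 against DD and 10 of 17 against WT, with 3 higher in the first at an unadjusted p under 0.05, against 4.27% of all genes. Aacs, which makes acetoacetyl-CoA from ketone bodies for lipid synthesis, was at 11.40 and 11.45 CPM in WT, 18.65 and 19.22 CPM in DD and 14.31 and 22.59 CPM in DD + rDKK3, with log2 fold changes of 0.73 ± 0.24 in DD and 0.69 with rDKK3 against WT. Acacb, the mitochondrial carboxylase, was at 76.53 and 111.4 CPM in WT, 152.9 and 105 CPM in DD and 165.1 and 146.7 CPM with rDKK3. DD 2 thus lay within its WT range. With rDKK3 against WT its adjusted p was 0.321 by edgeR. The 5 genes listed for NADPH supply and the pentose phosphate pathway were all higher in DD than in WT (median log2 fold change 0.35), where 51.7% of all genes were higher. All 5 were lower with rDKK3 than in DD (median -0.45), where 49.5% of all genes were higher. In either comparison 0 of 5 were called, against 0.0407% and 0% of all genes. Groups were apart in 1 of 5 in the first, against 18.1% of all genes higher, and in 3 of 5 in the second, against 14.4% lower. G6pdx, the entry enzyme of the pentose phosphate pathway, stood at 78.20 and 104.9 CPM in WT, 168.7 and 108.2 CPM in DD and 106.7 and 93.80 CPM with rDKK3. Its rise in DD was thus largest in DD 1. Pgd, at 393.6 CPM in DD 1 and 262 CPM in DD 2, had DD 2 within its WT range (229.5 and 275 CPM). Taldo1, at 544.3 and 337.5 CPM, likewise had DD 2 within its WT range (331.9 and 453 CPM). The DD libraries were close together in Idh1, at 629.4 and 621.9 CPM. Idh1, the cytosolic isocitrate dehydrogenase, stood at 486.5 and 445.4 CPM with rDKK3, below all 4 other libraries. Both comparisons use the same DD libraries, with opposite sign, so they are not independent. Against WT, 1 of the 5 was higher with rDKK3.

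In triglyceride synthesis and lipid droplets, 4 of 7 genes were higher in DD than in WT, 3 of 7 with rDKK3 than in DD and 4 of 7 with rDKK3 than in WT. Dgat2, which adds the last acyl chain of triglycerides, stood at 43.72 and 45.09 CPM in WT, 95.50 and 68.78 CPM in DD and 59.73 and 65.19 CPM in DD + rDKK3. Its log2 fold change in DD was 0.89 ± 0.19 (SE, unadjusted p 0.00163 and adjusted p 0.442 by edgeR), and all Dkk3-null libraries lay above both WT libraries. Lpin1, the phosphatidate phosphatase, was at 24.35 and 19.31 CPM with rDKK3 against 15.24 and 12.99 CPM in DD, a log2 fold change of 0.63. Of the 9 genes under LXR or of cholesterol efflux and storage, 3 were higher in DD than in WT (median -0.013), 5 with rDKK3 than in DD and 5 with rDKK3 than in WT, and 0 were at an unadjusted p under 0.05 in any of the 3 comparisons. Fatty acid oxidation was even in DD against WT, with 5 of 10 genes higher (median 0.042), had 3 of 10 higher with rDKK3 against DD and 5 of 10 against WT. Its carnitine carrier Slc25a20 was at 67.49 and 65.46 CPM in WT, 49.08 and 61.61 CPM in DD and 50.44 and 48.67 CPM with rDKK3. With rDKK3 against WT its log2 fold change was -0.42 (unadjusted p 0.0296 and adjusted p 0.321 by edgeR). Both untreated DD libraries also lay below both WT libraries.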

How the data were processed

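RNA-seq was analysed for 6 cultures of mouse acini in 3 groups of 2. The authors deposited raw counts, whole numbers of reads per gene, made from dUTP-stranded paired-end reads aligned with STAR 2.7.9a to GRCm39 with the basic GENCODE M32 annotation and counted over exons in union mode, and they tested them with DESeq2 1.38.0. Counting per gene cannot show isoforms, and reads shared by close copies may be lost. The 92 spike-in rows, with 0 counts, were left out.

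Counts were fitted here with edgeR 4.0.16 (R 4.3.3; TMM scaling, genes kept by filterByExpr at count and total minimums of 10 and 15, quasi-likelihood F-test, 3 groups in 1 fit with 3 residual degrees of freedom) and adjusted by Benjamini-Hochberg over 14738 genes, with calls at an adjusted p under 0.05. CPM use TMM-scaled totals, and log2 CPM a prior count of 2. The SE is the absolute log2 fold change over the square root of F. Levels per kilobase use exon lengths of GENCODE M39. The edgeR fit was tested on simulated counts, for DD against WT only.

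All 31 genes were described by CPM. In each comparison the 4 sterol and 2 fatty acid genes with the smallest unadjusted p were given with their test, and up to 2 genes of each other list. The members and lists were chosen with earlier results of these data known. Fold changes of further members were added for completeness, with the test for Elovl6. Alternatives were other scalings, no low-count filter, DESeq2 1.42.0, limma-voom (limma 3.58.1), only the groups compared, a replicate block and leaving out each library. Replicates differed beyond sampling noise in each group (chi-square per degree of freedom 21.49 to 61.06), so none was a copy. Counting limits precision little here, and 2 libraries a group limit it more.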

Additional observations from a re-analysis of the deposited data

How the results depend on the processing

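The fold changes of the 4 sterol and 2 fatty acid genes with the smallest unadjusted p in each comparison were tried under 11 alternatives each. None turned direction: 190 values kept their side of the threshold, 5 passed it, under DESeq2 or with no filter, and 3 under DESeq2 had no adjusted p (Lss, Hsd17b7 and Acaca in DD + rDKK3 against WT). Scaling by library size alone shifted the median over all genes from 0.016 to 0.22 (log2) for DD against WT, and from 0.017 to 0.18 for the treated libraries against WT. The sterol medians became 0.48 and 0.32 there, but relative to the median of all genes they were 0.26 and 0.14, against 0.25 and 0.12 with TMM. Under that scaling 21, 6 and 18 of 23 sterol genes were higher in the 3 comparisons, against 17, 9 and 16. Genes called in DD against WT numbered 6, 528 with no filter on low counts, 80 by DESeq2 and 2 to 4 with 1 library left out (2 without WT 1, WT 2 or DD 1). In DD + rDKK3 against DD they numbered 0, 73 with no filter, 5 by DESeq2 and 0 with 1 library left out. In DD + rDKK3 against WT they numbered 7, 788 with no filter, 74 by DESeq2, 3 by limma-voom and 2 to 5 with 1 library left out (2 without WT 1 or WT 2, 3 without DD + rDKK3 1). Of the 31 genes, 3 were called with no filter in each comparison with WT and 1 by DESeq2 in DD + rDKK3 against WT. The cause was not tested.

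With 1 library left out, the lone library of its group was assumed to vary like the others. The sterol median then ran from 0.14 to 0.34 in DD against WT, from -0.28 to 0.0563 in DD + rDKK3 against DD and from -0.0639 to 0.29 in DD + rDKK3 against WT. The fatty acid median ran from 0.29 to 0.57, from -0.0925 to 0.29 and from 0.32 to 0.71. The medians turned sign only without a DD + rDKK3 library.

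Treated and untreated Dkk3-null libraries of 1 number have the stem of their titles in common, and whether they share an animal is not known. Deviations of same-numbered libraries from the group means correlated at -0.387 (WT and DD), -0.247 (WT and DD + rDKK3) and 0.65 (DD and DD + rDKK3). With the number as a replicate block, edgeR called 7, 0 and 5 genes and none of the 31, and the sterol medians were 0.25, -0.090 and 0.14.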
